A study of Salvia dorisiana with 6 samples.

Results

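Isolated trichomes were compared with stem for all 85 transcripts of the deposited table of *Salvia dorisiana*, which is every row of the table that names a transcript. RNA came from greenhouse plants propagated as cuttings, for which no treatment is described. It was sequenced in 6 libraries, 1 of each kind. These were isolated trichomes, whole leaves of 3 sizes (<3 cm, from there to 10 cm, and >10 cm), roots and stem. The trichome library came from a total fraction of trichome heads of apical buds and young leaves, not separated by trichome type. These trichomes were therefore not taken from the stem, and the stem library was made from ground tissue with whatever trichomes it carried. For the trichomes, buds and leaves were soaked in ice-cold water and bead-beaten, and the heads were sieved out before freezing. The paper describes no such steps for the other tissues, and their share in the ratios was not tested. The table had been chosen on these same libraries for high RPKM in trichomes and for correlation with the limonene synthase and the pathway metabolites. RPKM are mapped reads scaled to transcript length and to the mapped total of the library. The lowest trichome level in it was 1004 RPKM, for clust1559, and all 85 transcripts were highest in trichomes, so the direction of the comparison was fixed by the choice of the list and is no finding. What could vary is how far stem lay below trichomes, and how this differed between enzyme classes.

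Glandular trichomes are hairs whose secretory head cells make and store terpenoids and phenolics. Monoterpenes and diterpenes are built from precursors of the plastidic methylerythritol phosphate (MEP) pathway, sesquiterpenes usually from cytosolic precursors. Prenyltransferases join these precursors into prenyl diphosphates, terpene synthases turn the diphosphates into hydrocarbon or alcohol skeletons, and P450s, dehydrogenases, methyltransferases and acyltransferases decorate the skeletons. In *S. dorisiana* the monoterpenoid methylperillate is made by such a chain, from limonene through perillyl alcohol and perillic acid.

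Classes were assigned from the closest BLAST hit and the Pfam domains of each transcript, which placed 75 transcripts in 13 classes and left 10 unclassed. Names given for clusters are matches in other species, apart from the genes that the authors characterised. Ratios are log2 of (RPKM + 1) in trichomes over (RPKM + 1) in stem, folds are plain quotients of RPKM, and intervals in parentheses are exact 95% intervals of counting error, from fragments recovered from the RPKM values. With 1 library a side there was no replicate check, no test between the tissues was made, and no p-value is given. In whole tissues, fewer trichome cells and less RNA per cell cannot be told apart.

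The libraries differed in depth, with 3314347 recovered mapped fragments in trichomes and 7323656 in stem. The 85 transcripts together took 35.6% of the fragments in trichomes (35.6–35.7, exact binomial interval), against 1.42% in stem (1.41–1.43). These are shares of the fragments mapped to a reference built from trichome cDNA. Fragments of transcripts absent from that reference are in neither total. Each transcript had at least 2384 fragments in trichomes and at least 9 in stem, where the median was 442. The list holds no defining genes of stem tissue, so the stem label could not be checked against it. The 2 transcripts annotated as phloem proteins do not serve for this, as both were highest in trichomes, at 1431 and 1467 RPKM. Both were low in the stem library, at 0.794 RPKM for clust219 and 9.33 RPKM for clust226.

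The list was cut at a trichome level, so the spread in trichomes is truncated. No cut was made on the stem level itself, but both correlations were taken over tissues that included stem, so the choice also bore on stem levels. The spreads in both tissues are given only as a description. In trichomes the list ran from 1004 to 22701 RPKM, a 22.6-fold span, with a median of 1832 RPKM. In stem it ran from 0.794 to 1261 RPKM, a 1588-fold span, with a median of 49.2 RPKM. On the log2 scale of RPKM + 1 the SD over transcripts was 1.08 in trichomes and 2.14 in stem. The median log2 ratio was 5.46, with a quartile range of 4.46 to 6.50, and the median fold was 44.7. Of the 85 transcripts, 28 (32.9%) had a log2 ratio of 6 or more, called at least 64-fold higher in trichomes here, and 16 (18.8%) had a log2 ratio under 4, called less than 16-fold higher. These 2 shares are the background for the class counts given below.

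**Figure D1:**
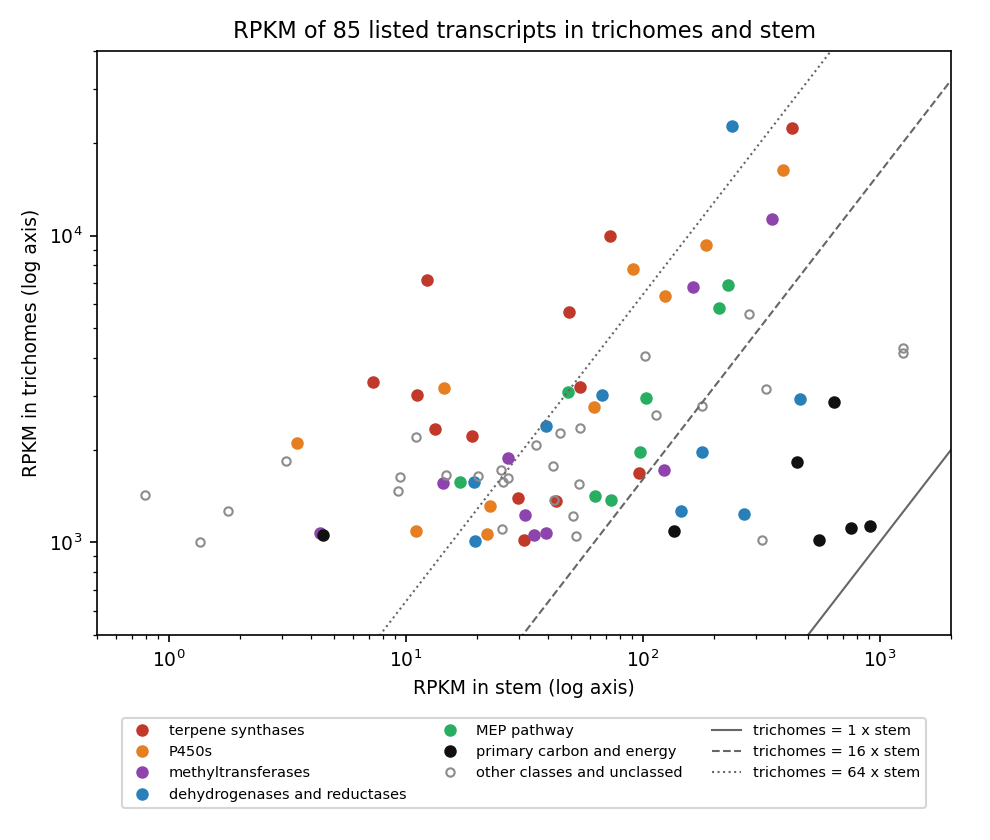
RPKM in trichomes (vertical log axis) against RPKM in stem (horizontal log axis), 1 point per transcript and 1 library per tissue, coloured by class; lines mark equal levels and 16-fold and 64-fold higher trichome levels. Points span 0.794 to 1261 RPKM in stem and 1004 to 22701 RPKM in trichomes, and the 3 black points nearest to the line of equal levels are mitochondrial proteins.

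Between the highest and the lowest class median lay 5.06 log2 units, with terpene synthases at the top and antioxidant transcripts at the bottom, among the 9 classes with 3 or more members. The order of the last 2 classes rests on 1 transcript, since without clust2305 the median of primary carbon and energy metabolism was 1.44, below the 1.73 of antioxidant transcripts. The order was terpene synthases at a median log2 ratio of 6.79, lipid and cuticle metabolism at 5.87, P450s at 5.73, dehydrogenases and reductases at 5.46, acyltransferases at 5.30, methyltransferases at 5.22, the MEP pathway at 4.81, primary carbon and energy metabolism at 2.02 and antioxidant transcripts at 1.73. The terpene synthase median lay 4.77 above that of primary carbon and energy metabolism. Within classes the spread was also large: the terpene synthases ran from 4.12 to 9.07 and primary metabolism from 0.31 to 7.59, so single members of a high class could lie below members of a low one. The MEP pathway had the narrowest range of the 9 classes, 4.20 to 6.46. The median of the dehydrogenases and reductases was the median of the whole list, held by the same transcript, clust3054.

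**Figure D2:**
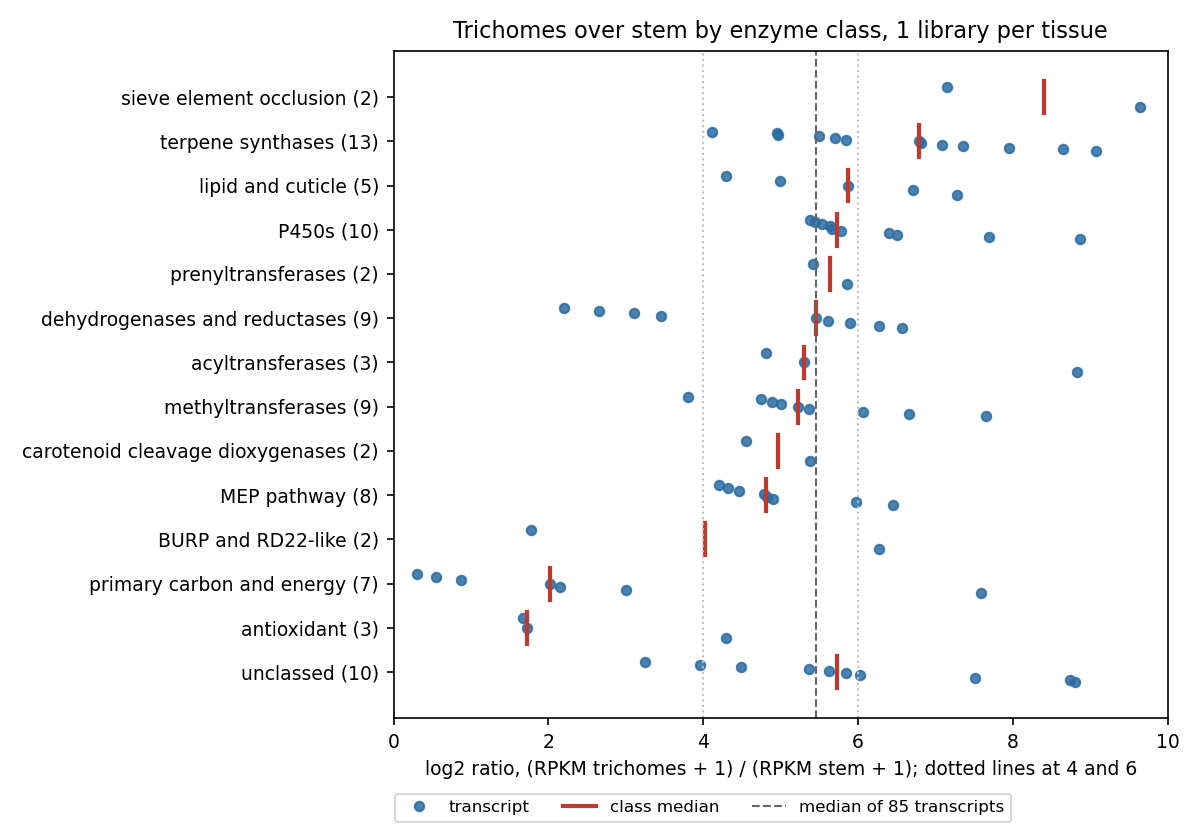
Log2 ratio of trichomes over stem (RPKM + 1, horizontal axis) for each transcript, by class with the number of members in parentheses; red bars are class medians, the dashed line is the list median of 5.46 and dotted lines mark ratios of 4 and 6. Terpene synthases have 7 of 13 members at 6 or above and none under 4, and 6 of 7 transcripts of primary carbon and energy metabolism lie under 4.

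Of the 13 terpene synthases, 7 were at least 64-fold higher in trichomes, against the 32.9% of the list, and none was less than 16-fold higher. Together they took 10.6% of the fragments in trichomes (10.6–10.6) and 0.146% in stem (0.143–0.149). The summed RPKM was 64697 in trichomes and 869 in stem, a 74.5-fold difference. By BLAST hit, 7 were placed with sesquiterpene synthases and 3 with diterpene synthases. The 3 placed with monoterpene synthases are the clusters that carry names of characterised genes; the closest hit of SdSaS is a bergamotene synthase, so its place rests on its name. All 3 diterpene-type synthases were above 64-fold and none of the 3 monoterpene-type synthases was. The sesquiterpene type was at 4 of 7, and the list at 32.9%. The groups are small, so no difference between the types is drawn from these counts.

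The highest ratio among terpene synthases was that of clust1050, with hits to sesquiterpene synthases that make caryophyllene or germacrene D. It was at 7151 RPKM in trichomes and 12.3 RPKM in stem, which is 582-fold (479–714). With the same pair of hits, clust1093 was at 3322 RPKM in trichomes and 7.29 RPKM in stem, 456-fold (371–567). These 2 intervals overlap, so counting error alone covers the gap between them.

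Transcripts with the same closest hit could differ strongly. Germacrene D synthase was the closest hit of both clust1129 and clust1421. In clust1129 the level was 9979 RPKM in trichomes and 72.7 RPKM in stem, 137-fold (128–147). In clust1421 it was 1688 RPKM in trichomes and 96.4 RPKM in stem, 17.5-fold (16.5–18.6), the lowest ratio of the class. The folds of this pair differed by a factor of 7.84, the product of a 5.91-fold higher trichome level and a 1.33-fold lower stem level in clust1129. Another transcript with hits to germacrene D and patchoulol synthases, clust2225, was at 1016 RPKM in trichomes and 31.5 RPKM in stem, 32.2-fold.

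The diterpene-type synthases act on geranylgeranyl diphosphate or on the copalyl diphosphate made from it. The cluster closest to diterpene and sclareol synthases, clust927, was at 3011 RPKM in trichomes and 11.2 RPKM in stem, 268-fold (223–326). The copalyl diphosphate synthase-like clust70 was at 5637 RPKM in trichomes and 49.2 RPKM in stem, 115-fold (107–123). The kaurene or miltiradiene synthase-like clust874 was at 2218 RPKM in trichomes and 19.1 RPKM in stem, 116-fold (102–132). Both of these last folds lay within each other's interval, while clust927 stood apart from them.

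The genes of methylperillate synthesis lay close to the middle of the list, and SdPAOMT stood above the others. The cluster of the limonene synthase SdLS, which also carries the name SdEuS, was at 22369 RPKM in trichomes and 428 RPKM in stem, 52.3-fold (50.9–53.7). The limonene 7-hydroxylase SdL7H, a P450, stood at 9290 RPKM in trichomes and 185 RPKM in stem, 50.2-fold (48.0–52.5). SdPOHDH, the dehydrogenase of perillyl alcohol, was at 1009 RPKM in trichomes and 19.7 RPKM in stem, 51.3-fold (43.9–60.4). The intervals of these 3 overlap pairwise, at levels that span a 22.2-fold range in trichomes.

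The methyltransferase of perillic acid, SdPAOMT, stood at 1557 RPKM in trichomes and 14.4 RPKM in stem, 108-fold (89.4–131), an interval that overlaps none of the other 3. Seen within each tissue, RPKM of the SdLS cluster over that of SdPAOMT was 14.4 in trichomes and 29.7 in stem. The same quotient over SdL7H was 2.41 in trichomes and 2.31 in stem, and over SdPOHDH 22.2 in trichomes and 21.8 in stem. The sabinene synthase SdSaS, at 1391 RPKM in trichomes and 29.9 RPKM in stem, was 46.5-fold higher in trichomes (41.8–51.9). The cluster labelled SdPS was at 1368 RPKM in trichomes and 43.2 RPKM in stem, 31.6-fold (29.1–34.4); its GenBank number in the table is the one given to SdPCS, so its label is uncertain.

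**Figure D3:**
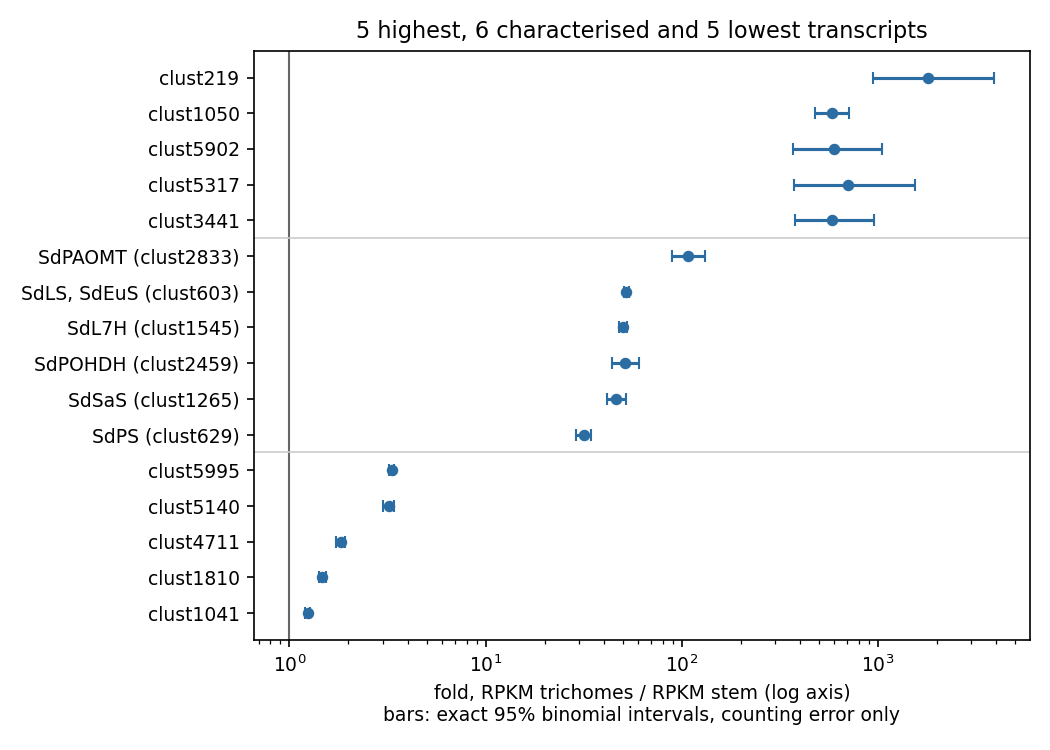
Fold of trichomes over stem (RPKM quotient, log axis) for the 5 highest transcripts, the 6 clusters with a characterised gene and the 5 lowest transcripts of the list; bars are exact 95% binomial intervals of counting error. SdLS, SdL7H and SdPOHDH share overlapping intervals near 50-fold, SdPAOMT lies at 108-fold, and the lowest transcript, clust1041, at 1.24-fold.

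P450s are haem enzymes, many of which hydroxylate terpenoid skeletons, and 8 of the 10 listed lay above the list median. None of the class was less than 16-fold higher in trichomes and 4 were at least 64-fold higher, against 18.8% and 32.9% of the list. The ratios ran from 5.38 to 8.87. The lowest was clust1609, closest to ferruginol synthase of diterpenoid metabolism. It was also the most abundant P450 in both tissues, at 16299 RPKM in trichomes and 391.7 RPKM in stem, 41.6-fold (40.3–42.9). The highest was clust5902, closest to a CYP71B9, at 2107 RPKM in trichomes and 3.50 RPKM in stem, 602-fold (370–1054), the stem value resting on 16 fragments. The cluster clust5902 has no Pfam domain in the table and is a P450 by its BLAST hit alone.

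The 4 P450s of the CYP76 or ferruginol synthase type had a median log2 ratio of 5.73, and the 6 of the menthofuran synthase or CYP71 type a median of 6.07. Among the CYP76 type clust1568 had the highest ratio, at 7808 RPKM in trichomes and 91.1 RPKM in stem, 85.7-fold (80.5–91.3). Both transcripts closest to CYP71AT89 were above 64-fold. In clust1523 the level was 3193 RPKM in trichomes and 14.5 RPKM in stem, 220-fold (188–258). In clust1660 it was 1092 RPKM in trichomes and 11.03 RPKM in stem, 99.0-fold (82.5–120). The stem levels of the pair were close while the trichome levels differed 2.92-fold.

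Methyltransferases transfer methyl groups from *S*-adenosylmethionine. The 9 listed had 3 members at 64-fold or more and 1 under 16-fold, near the 32.9% and 18.8% of the list. The 3 transcripts with a Methyltransf_7 domain were placed in the SABATH family, whose known members methylate carboxyl or nitrogen groups. Here their order by ratio was the reverse of their order by level. SdPAOMT, the least abundant of them, was 108-fold higher in trichomes. The transcript clust4450 was at 6803 RPKM in trichomes and 163 RPKM in stem, 41.7-fold (39.0–44.5). The most abundant, clust2514, was at 11344 RPKM in trichomes and 351 RPKM in stem, 32.3-fold (31.0–33.8).

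Among the 4 *O*-methyltransferases with a dimerisation domain, which methylate hydroxyl groups of phenolics in the family's known members, the ratios ran from 4.88 to 7.65. The highest methyltransferase of all was clust2791, closest to caffeic acid 3-*O*-methyltransferase, at 1076 RPKM in trichomes and 4.37 RPKM in stem, 246-fold (176–356). The lowest was clust4440, closest to the methyltransferase of phylloquinone synthesis in chloroplasts, at 1728 RPKM in trichomes and 123 RPKM in stem, 14.1-fold (12.98–15.2). A transcript of the same class with a cyclopropane fatty acid synthase domain, clust15, was at 1077 RPKM in trichomes and 39.2 RPKM in stem, 27.5-fold.

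Dehydrogenases and reductases were spread widely, from 4.62-fold to 94.9-fold higher in trichomes. Of the 9, 2 were at least 64-fold higher in trichomes and 4 were less than 16-fold higher, against 32.9% and 18.8% of the list. The highest was clust3515, a phenylcoumaran benzylic ether reductase-like protein and the most abundant transcript of the list, at 22701 RPKM in trichomes and 239 RPKM in stem, 94.9-fold (90.3–99.7). The menthol dehydrogenase-like clust3165 was at 1578 RPKM in trichomes and 19.4 RPKM in stem, 81.3-fold (68.8–96.7). The single aldehyde dehydrogenase, clust1416, was at 2393 RPKM in trichomes and 39.2 RPKM in stem, 61.0-fold (55.5–67.2).

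At the lower end stood 2 alkenal reductases, enzymes that reduce reactive unsaturated aldehydes. The transcript clust3274 was at 1966 RPKM in trichomes and 179 RPKM in stem, 10.98-fold (10.3–11.7). The transcript clust2675 was at 2923 RPKM in trichomes and 464 RPKM in stem, 6.30-fold (6.07–6.55), and stem was its highest library after trichomes, above leaves <3 cm at 431 RPKM. The uncharacterised NmrA-domain protein clust3478 was 8.68-fold higher in trichomes. The lowest was clust4242, closest to a peroxisomal trans-2-enoyl-CoA reductase of fatty acid metabolism, at 1237 RPKM in trichomes and 267 RPKM in stem, 4.62-fold (4.36–4.91).

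**Figure D4:**
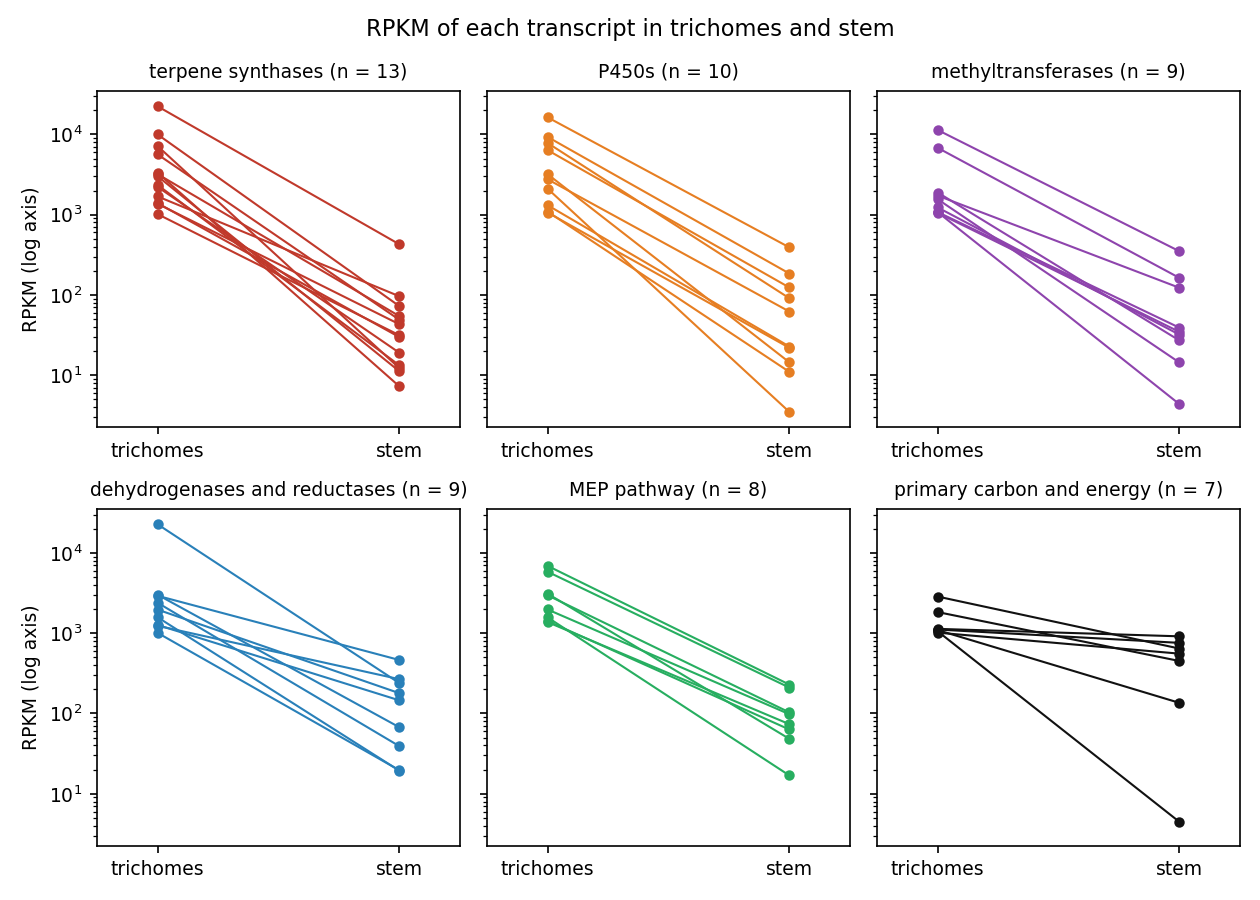
RPKM (log axis) of each transcript in trichomes (left) and stem (right) in 6 classes, with a line joining the values of a transcript and 1 library per tissue. Stem points lie at least 16-fold below trichome points for all terpene synthases, P450s and MEP pathway transcripts, and less than 16-fold below for 4 dehydrogenases or reductases and 6 of 7 transcripts of primary carbon and energy metabolism.

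The MEP pathway transcripts lay below the list median in 6 of 8 cases and were the class in which stem was most often the lowest library. None was under 16-fold, and 1 was at least 64-fold higher in trichomes, against 18.8% and 32.9% of the list. That one was clust3980, an isopentenyl diphosphate isomerase, at 1572 RPKM in trichomes and 16.9 RPKM in stem, 92.9-fold (75.1–116). The isomerase interconverts isopentenyl and dimethylallyl diphosphate, after the last enzyme of the MEP pathway proper, and was only grouped with the pathway here. Next came clust158, closest to 1-deoxy-D-xylulose 5-phosphate synthase of the entry step, at 3103 RPKM in trichomes and 48.4 RPKM in stem, 64.2-fold (59.7–69.0), with a log2 ratio of RPKM + 1 of 5.97.

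The reductoisomerase and the later steps had similar ratios. The 4 transcripts of later steps, the kinase clust2269, the cyclodiphosphate synthase clust4785, clust133 and clust1630, ran from 4.32 to 4.90. The last enzyme of the pathway, clust1630, was at 6891 RPKM in trichomes and 229 RPKM in stem, 30.1-fold (28.9–31.3). The lowest of the class was clust5857, a 1-deoxy-D-xylulose 5-phosphate reductoisomerase by its hit, at 1374 RPKM in trichomes and 73.6 RPKM in stem, 18.7-fold (16.7–21.0). The cluster clust1689 carries reductoisomerase domains in Pfam and none of the domains of clust158, although its BLAST hit is a synthase. It was grouped with the reductoisomerase by its domains and was 28.7-fold higher in trichomes.

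In 7 of the 8 MEP pathway transcripts, stem was the lowest of all 6 libraries, also below roots. Over the whole list this was the case for 14 of 85, and in 54 of 85 stem was the second lowest. Root levels were high in this class: clust1630 was at 1032 RPKM in roots and clust158 at 465 RPKM. Of the 8, only clust3980 was higher in stem than in roots, where it was at 2.62 RPKM, whereas 65 of the 85 listed transcripts were higher in stem than in roots.

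Prenyltransferases supply the diphosphates of terpene synthesis, and the 2 listed, both closest to lavandulyl diphosphate synthase, had near-median ratios. The transcript clust3861 was at 1625 RPKM in trichomes and 26.99 RPKM in stem, 60.2-fold (51.7–70.5). The transcript clust3337 was at 2368 RPKM in trichomes and 54.3 RPKM in stem, 43.6-fold (39.3–48.5). The 2 carotenoid cleavage dioxygenases, which cut carotenoids into apocarotenoids, differed from each other. The transcript clust976, closest to the plastidic type 4, was at 1105 RPKM in trichomes and 25.6 RPKM in stem, 43.2-fold (38.7–48.5), an interval that overlaps that of clust3337. The transcript clust1111, closest to type 1, was at 1215 RPKM in trichomes and 51.0 RPKM in stem, 23.8-fold (21.9–25.9).

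Acyltransferases transfer acyl groups to alcohols and amines, and 1 of the 3 was far from the others. The vinorine synthase-like clust5317 was at 1267 RPKM in trichomes and 1.79 RPKM in stem, 708-fold (373–1551), with 9 fragments in stem. The other 2 members were the alcohol acyltransferase-like clust1946, at 4050 RPKM in trichomes and 102 RPKM in stem, 39.7-fold (37.0–42.6), and the malonyltransferase-like clust1854, at 1552 RPKM in trichomes and 54.1 RPKM in stem, 28.7-fold (26.3–31.3).

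Transcripts of lipid and cuticle metabolism were all at least 16-fold higher in trichomes, with 2 of 5 at 64-fold or more. In the whole list 18.8% were under 16-fold and 32.9% at 64-fold or more. The fatty acyl-CoA reductase clust2942, of a family that makes fatty alcohols, was at 1635 RPKM in trichomes and 9.50 RPKM in stem, 172-fold (127–238). The ketoacyl-ACP synthase clust1812, of fatty acid elongation, was at 1655 RPKM in trichomes and 14.8 RPKM in stem, 112-fold (95.2–132). The lowest was clust458, closest to ECERIFERUM 1 of wax alkane synthesis, at 1053 RPKM in trichomes and 52.6 RPKM in stem, 20.0-fold (18.5–21.6). Between them were 2 GDSL lipases, clust2690 at 60.7-fold and clust2659 at 32.6-fold.

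Primary carbon and energy metabolism held the ratios nearest to equal levels, with 6 of 7 members under 16-fold against 18.8% of the list. Its members took 1.24% of the fragments in trichomes (1.23–1.26) and 0.423% in stem (0.419–0.428). The 3 mitochondrial proteins were the 3 lowest ratios of the list and the only ones under 2-fold. For clust1041, the beta subunit of ATP synthase, RPKM was 1132 RPKM in trichomes and 914 RPKM in stem, 1.24-fold (1.20–1.28). Malate dehydrogenase, clust1810, was at 1111 RPKM in trichomes and 758 RPKM in stem, 1.47-fold (1.41–1.53). The ATP synthase subunit O, clust4711, was at 1015 RPKM in trichomes and 556 RPKM in stem, 1.83-fold (1.73–1.92).

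RPKM are scaled to the fragments mapped to a reference from trichome cDNA, so every ratio depends on what else was mapped. The 2 ATP synthase subunits were used as another scale. Setting the mean log2 ratio of these subunits to 0 shifts every ratio by -0.59, which by construction leaves the distances between classes as they are and puts clust1041 below 0. On that scale clust1810 was also below 0, and the other 83 listed transcripts were above it.

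The plastidic enzymes of carbon metabolism stood higher than the mitochondrial proteins. Triosephosphate isomerase clust2916 was at 1832 RPKM in trichomes and 451 RPKM in stem, 4.07-fold (3.90–4.24). The aldolase clust2220 was at 2858 RPKM in trichomes and 644 RPKM in stem, 4.44-fold (4.30–4.58), and the glucose-6-phosphate isomerase clust628 was 8.06-fold higher in trichomes (7.65–8.49). The exception of the class was clust2305, closest to a phosphoenolpyruvate/phosphate translocator that brings phosphoenolpyruvate into plastids. It was at 1056 RPKM in trichomes and 4.47 RPKM in stem, 236-fold (172–333). Without it, the other 6 members ranged up to a log2 ratio of 3.00 and their median was 1.44, against 2.02 with it.

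Antioxidant transcripts had high levels in both tissues, with a median stem level of 318 RPKM. Of the 3, 2 were less than 16-fold higher in trichomes, against 18.8% of the list. The CuZn superoxide dismutase clust5995, which removes superoxide, was at 4157 RPKM in trichomes and 1253 RPKM in stem, 3.32-fold (3.21–3.43). Its stem level was above that in leaves <3 cm, at 1203 RPKM, which among the 85 was so only here and in clust2675. The peroxiredoxin clust5140 was at 1020 RPKM in trichomes and 318 RPKM in stem, 3.21-fold (3.01–3.42), and the glutathione peroxidase clust5293 at 5566 RPKM in trichomes and 282 RPKM in stem, 19.8-fold (18.7–20.9).

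The 2 BURP or RD22-like transcripts, named after dehydration-responsive proteins of the cell wall, were far apart, with clust2665 at rank 26 and clust2906 at rank 80 of the 85 ratios. The transcript clust2906 had the highest stem level of the list, at 4303 RPKM in trichomes and 1261 RPKM in stem, 3.41-fold (3.33–3.50). The transcript clust2665 was at 1643 RPKM in trichomes and 20.3 RPKM in stem, 80.9-fold (67.5–97.8).

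The highest ratio of the list belonged to a transcript annotated as SIEVE ELEMENT OCCLUSION B, a family of phloem proteins that plug injured sieve tubes in other plants. This transcript, clust219, was at 1431 RPKM in trichomes and 0.794 RPKM in stem, 1803-fold (949–3944), with 9 fragments in stem. A second one with this annotation, clust226, was at 1467 RPKM in trichomes and 9.33 RPKM in stem, 157-fold (134–186). Trichome RPKM of clust219 was 0.976 of that of clust226, whereas clust226 had 11.8 times the stem RPKM of clust219. In leaves <3 cm clust226 was at 625 RPKM and clust219 at 54.5 RPKM. Both were lower in stem than in leaves <3 cm, as were all but 2 of the 85 listed transcripts.

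Of the 10 unclassed transcripts 4 were at least 64-fold higher in trichomes and 2 were less than 16-fold higher, near the 32.9% and 18.8% of the list. The uncharacterised clust3441 was at 1838 RPKM in trichomes and 3.14 RPKM in stem, 586-fold (379–960). The serine carboxypeptidase-like clust1559 was at 1004 RPKM in trichomes and 1.35 RPKM in stem, 741-fold (449–1325). The only transcription factor-like transcript, clust4655, closest to ESR2 of the ethylene-responsive factor family, was at 2199 RPKM in trichomes and 11.1 RPKM in stem, 199-fold (155–260). The pleiotropic drug resistance transporter-like clust10, of a family that exports small molecules, was at 2084 RPKM in trichomes and 35.4 RPKM in stem, 58.9-fold (54.8–63.4). At the lower end the epoxide hydrolase-like clust3307 was 9.56-fold and the membrane steroid-binding clust5333 15.6-fold higher in trichomes.

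The very high folds rest on thin stem counts. In 7 transcripts stem was under 5 RPKM, with a median of 16 fragments, and the bounds of the widest interval, that of clust5317, lie a factor of 4.16 apart. The narrowest spans a factor of 1.05 and the median one 1.21. The intervals of clust1559, clust5317, clust5902, clust3441 and clust1050 all overlap each other, so counting error alone leaves their order unresolved. The interval of clust219 overlaps those of the first 4 of these and lies above that of clust1050.

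Seen beside the other libraries, the ratio over stem was larger than the ratio over leaves <3 cm for 83 of 85 transcripts, by unequal amounts between classes. The list median was 5.46 over stem, 3.35 over leaves <3 cm, 4.88 over leaves >10 cm and 8.39 over roots. All 4 ratios share the trichome library. The list was selected by correlation with the limonene synthase, itself at 428 RPKM in stem and 1817 RPKM in leaves <3 cm. It was also selected by correlation with metabolites that the paper reports as highest in small leaves. Both could favour transcripts lower in stem than in these leaves, so the count of 83 is no finding. The share of each was not tested. For terpene synthases the medians were 6.79 over stem and 3.90 over leaves <3 cm, and for lipid and cuticle metabolism 5.87 over stem and 1.71 over leaves <3 cm. Both lipid and cuticle medians were those of the GDSL lipase clust2690. Taken transcript by transcript, the median log2 ratio of stem over leaves <3 cm was -2.82 in that class, near the -2.67 of terpene synthases. For the MEP pathway they were 4.81 over stem, 3.22 over leaves <3 cm, 3.53 over leaves >10 cm and 3.60 over roots. Antioxidant transcripts, at 1.73 over stem and 1.79 over leaves <3 cm, they were close.

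By plain quotients of RPKM, the widest gap between stem and leaves <3 cm was that of clust219, at 0.794 RPKM in stem and 54.5 RPKM in leaves <3 cm, 68.6 times as high in the leaves, with 9 fragments in stem. On the log2 scale of RPKM + 1, clust226 at 5.92 and clust1523 at 5.23 lay above clust219 at 4.95. For clust226 the leaves were 66.9 times as high, and for the P450 clust1523, at 583 RPKM in leaves <3 cm, 40.2 times. The GDSL lipase clust2690, at 480 RPKM in leaves <3 cm, was 18.5 times as high there as in stem. The stem level of 63 of the 85 transcripts was also below that in leaves >10 cm.

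**Figure D5:**
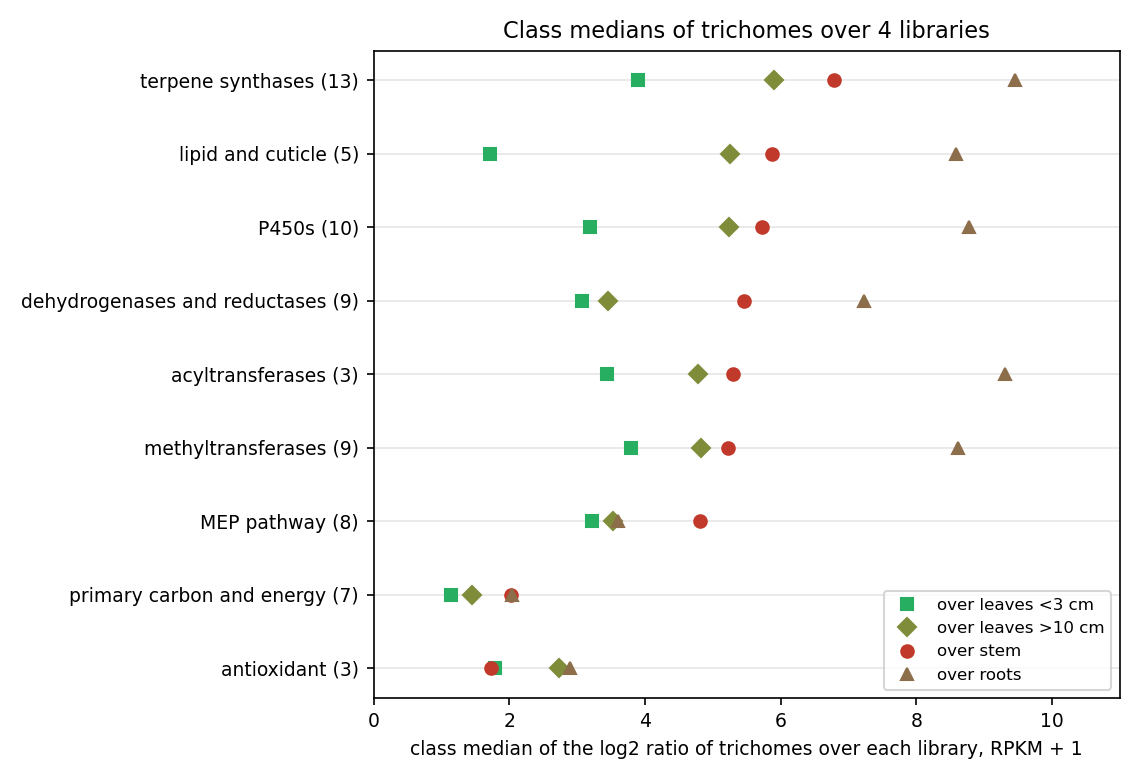
Class medians of the log2 ratio of trichomes (RPKM + 1) over leaves <3 cm, leaves >10 cm, stem and roots, for the 9 classes with 3 or more members (number in parentheses). Lipid and cuticle metabolism has the widest gap between the ratio over stem (5.87) and over leaves <3 cm (1.71), both held by clust2690. In the MEP pathway the ratio over stem (4.81) exceeds that over roots (3.60).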

How the data were processed

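Stranded libraries of 6 tissues were sequenced by the authors, separated with CASAVA 1.8.1 and mapped in CLC Genomics Workbench. The reference came from long trichome cDNA reads, whose predicted reading frames (600 nt or longer) were merged by similarity into clusters. Pairs were counted once, without regard to strand, and a read could match several places, so close family members can share reads. The values deposited by the authors are RPKM of 85 transcripts, selected by them on these libraries by RPKM above 1000 in trichomes and both correlations above 0.6. Their deposited correlation scores, with pathway metabolites and with the limonene synthase over tissues, were not used. The study counts 1 more selected transcript than the 85 used here. No RPKM column belonged to another sample (0 of them). Transcripts outside the table were not analysed here.

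Ratios used a pseudocount of 1 RPKM, which understates ratios of transcripts low in stem, and no filter. Fragments were recovered as whole numbers from RPKM = fragments over coding length and library total, taking the shortest length from 600 to 3000 nt that fitted; the upper limit was set after a wider one gave no whole trichome values. With lengths between 609 and 2961 nt, 510 of 510 values came out whole (tolerance 0.001 of a fragment). In 61 transcripts several lengths fitted; a longer one would narrow the intervals and raise the fragment shares. Tested on 5 simulated tables, this search returned 100% of the library totals, and for 99.1% of transcripts all their fragment counts. Intervals are exact (Poisson or Clopper-Pearson, 95%) and cover counting error only.

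Classes, fold limits and the rule for named transcripts were chosen with earlier results of these data known. The rule took characterised genes, the extremes of each class, both members of classes of 2, the 5 highest and 5 lowest ratios, and transcripts higher in stem than in leaves <3 cm, 37 in all; other named transcripts were chosen after their values were seen. Alternatives were pseudocounts of 0.1 and 10 RPKM, a mean of at least 400 RPKM, rescaling to ATP synthase subunits, and classes by Pfam alone. Tools were scipy 1.17.1, numpy 2.4.6, matplotlib 3.10.9 and pandas 2.3.3 under Python 3.11.15.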

Additional observations from a re-analysis of the deposited data

How the results depend on the processing

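With a pseudocount of 10 RPKM the list median was 5.26, the terpene synthase median minus the primary metabolism median 4.26, and the range of class medians 4.54. Among the 46 transcripts with a mean of at least 400 RPKM, 10 were at least 64-fold higher in trichomes, against 28 of 85, and both that difference of medians and the range of class medians were 6.21, since fewer members and 6 classes remained. Transcripts low outside trichomes pass that filter through their trichome level alone, so these values support nothing about the classes. The class order also changed there: primary carbon and energy metabolism was lowest at 0.87, below antioxidant transcripts at 1.73, and dehydrogenases and reductases were at 3.45, below the MEP pathway at 4.83. Rescaling to the ATP synthase subunits gave a list median of 4.87, with clust1041 at -0.28 and clust1810 at -0.036, and moved the other ratios by the same shift. It left 20 transcripts at 64-fold or more, against 28, and put 24 under 16-fold, against 16. Among those 24 were clust1421 (3.53), clust5857 (3.62) and clust458 (3.71). On that scale the terpene synthases, the MEP pathway and lipid and cuticle metabolism therefore had members under 16-fold. With a pseudocount of 10 RPKM clust1421 was at 3.9965, also under 4. The other values given for the whole list moved within counting error, or within 1.5 times for counts, under these 3 settings, a pseudocount of 0.1 RPKM and classes by Pfam domain alone. Under the other 4 settings terpene synthases had the highest and antioxidant transcripts the lowest class median, which rescaling cannot alter. The order between them did change with a pseudocount of 10 RPKM. There P450s (5.57) lay above lipid and cuticle metabolism (5.46), and acyltransferases (5.18) above dehydrogenases and reductases (5.10). Of the 37 transcripts named by rule, a pseudocount of 10 RPKM moved 23 beyond counting error and a pseudocount of 0.1 RPKM moved none. No paired analysis was possible because each tissue has 1 library and the labels give no replicate numbers. Depth limits the transcripts under 5 RPKM in stem, and the spread between plants is unknown.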
